A study of Mus musculus with 12 samples.

Results

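The glycolysis and hypoxia response genes described here are 35 genes chosen by symbol: 4 glucose and lactate transporters, 15 glycolytic enzymes, 5 regulators of glycolysis or of the fate of pyruvate, 4 HIF subunits and prolyl hydroxylases, and 7 hypoxia targets. All 35 symbols were found, on 36 of the 57010 rows of the count table. Aldoa had a second, overlapping row (ENSMUSG00000114515), which held 0.176 to 2.57 CPM (counts scaled to the library total) and was kept apart from the main row, ENSMUSG00000030695.

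The genes were measured by bulk poly-A RNA-Seq in NE-4C cells, a mouse line of p53-deficient neural progenitors from embryonic brain that forms neurons after all-trans retinoic acid (RA). The design crossed genotype with RA in 12 libraries, 3 per group. WT NO and KO NO were wildtype and Faf2 knockout cells collected without perturbation. WT RA and KO RA were the same lines given 1 µM RA for 24 h, then basal media, and collected on day 3. The KO was 1 line made by CRISPR/Cas9 deletion of exon 4 of Faf2, an ER adaptor for clearing misfolded proteins, so Faf2 loss cannot be told apart from other properties of that line. All 4 groups share the p53-deficient background. RA also cannot be told apart from the days in basal media that followed it, since no untreated group is described as having been kept for them. The 3 libraries of a group came from separate passages of 1 line, so p-values measure the spread between passages.

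Glycolysis splits glucose to pyruvate in the cytosol, and cells in which pyruvate is turned to lactate export it through monocarboxylate transporters. HIF, a pair of an alpha subunit (Hif1a or Epas1) and ARNT, is held low in oxygen by the EGLN prolyl hydroxylases, which mark the alpha subunit for destruction by VHL. When oxygen falls, HIF binds short hypoxia response elements and activates glucose transporters, most glycolytic enzymes, Pdk1, Vegfa and, as feedback, Egln1 and Egln3, and neural progenitors in the embryo are known for high glycolysis that declines as neurons form.

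Hypoxia response elements hold the letters ACGTG or GCGTG. RefSeq promoters (250 bases before to 50 after a start, GRCm38.p6) were found for 32 members, with 48 windows, and these letters were searched on both strands. ACGTG stood in 54.2% of the members' windows and in 19.6% of all 32851 windows of the same length. GCGTG stood in 50% against 32.4%. Either was in 77.1% of the members' windows and 43.8% of all, and CACGTG, the E-box bound by MYC and MXI1 partners, which contains ACGTG, was in 10.4% against 7.15%. Windows of Eno2, Gpi1, P4ha3 and Tpi1 held neither, and Slc2a3, Ndrg1 and Epas1 were not matched. Some windows of 1 gene overlap, such as those of Eno1 and Aldoa, so a match can be counted more than once. All windows were not matched to the members' for base composition, and the percentages were not tested. A match is a string of letters and not a shown binding site. The stretches shown, 1 window a gene, are those of the 7 members with a match that rose in WT RA in the comparison given further on. They carry GRCm38.p6 coordinates, while the counts were made on GRCm39. Each is written 5′ to 3′ on the gene's own strand, with matches on either strand in capitals (CACGT and CACGC are ACGTG and GCGTG on the other strand).
Slc2a1 (chr4:119108664-119108733, plus strand): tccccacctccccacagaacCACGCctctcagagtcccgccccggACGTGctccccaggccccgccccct
Pgk1 (chrX:106186930-106186993, plus strand): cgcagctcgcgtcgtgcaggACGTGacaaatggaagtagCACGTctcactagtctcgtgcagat
Pfkfb3 (chr2:11553965-11554009, minus strand): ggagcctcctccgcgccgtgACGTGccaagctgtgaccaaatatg
Pdk1 (chr2:71873126-71873170, plus strand): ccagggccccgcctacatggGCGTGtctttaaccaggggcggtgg
Egln1 (chr8:124949298-124949400, minus strand): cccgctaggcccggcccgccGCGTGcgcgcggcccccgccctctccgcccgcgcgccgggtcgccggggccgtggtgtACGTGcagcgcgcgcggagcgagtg
Egln3 (chr12:54204079-54204123, minus strand): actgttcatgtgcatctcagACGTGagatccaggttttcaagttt
Mxi1 (chr19:53329327-53329371, plus strand): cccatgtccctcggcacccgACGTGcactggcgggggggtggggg
In Pgk1 the matches began 150 and 131 bases before the start, in Slc2a1 61 and 36 bases, and in Egln3 229 bases before it.

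Library totals ran from 17370069 to 30738717 estimated counts. KO RA replicate 3 stood apart from the other 11 libraries. Its mitochondrial transcripts made up 23.5% of counts against 9.10 to 17.7% elsewhere, its 100 most abundant genes 62.5% against 37.1 to 50.4%, and its TMM factor was 0.394 against 0.872 to 1.28. Members made up 0.311% of its counts against 1.11 to 2.51%. The genes were therefore fitted both with all 12 libraries and with 11, without that library, which leaves 2 KO RA libraries, and counts of called members are given from both. Faf2 itself was at 50.01, 38.8 and 36.0 CPM in WT NO and at 21.0, 21.7 and 25.4 in KO NO. Its log2 difference was -0.87 ± 0.27 (SE), with an edgeR adjusted p of 0.179 in 12 libraries and 0.0111 in 11. The defining markers of neural progenitors (Nes, Sox2, Pax6, Otx2, Cdh2) summed to 254 to 300 CPM in WT NO and 169 to 324 in KO RA, and none was at the floor of 3 counts, but single markers differed by genotype, as given with those comparisons. The 4 pluripotent markers (Pou5f1, Nanog, Zfp42, Dppa5a) summed higher, to 1207 to 2323 CPM in WT NO and 1422 to 1697 in KO NO, with Zfp42 at the floor. These sums are not a test of cell identity.

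Levels are CPM, estimated counts scaled to the TMM-adjusted library total. Since the deposited values were scaled from TPM, they are per transcript length and may be set side by side between genes. In WT NO, Gapdh, the dehydrogenase that reduces NAD+ in the middle of the pathway, was highest at 5590 ± 952 CPM (SD, n = 3), with the libraries at 6180, 6098 and 4491. Pkm, the pyruvate kinase that ends the pathway, followed at 2535 ± 254, and Aldoa, the main aldolase, at 1113 ± 127. Pgam1 (753 ± 153), Eno1 (734 ± 6.13), Ldha (708 ± 119) and Pgk1 (621 ± 28.0) came next. Their libraries overlapped between neighbours in this order, except that all 3 Pgk1 libraries lay below all 3 Eno1 libraries. At the other end stood Ankrd37 (1.49 ± 0.294), P4ha3 (1.14 ± 0.601), Epas1 (1.08 ± 0.198) and Pfkfb4 (0.931 ± 0.392), which likewise overlapped. Car9, a cell-surface carbonic anhydrase and a classic hypoxia marker, was at 0 in all 3 KO NO libraries and in 2 WT NO libraries, and reached at most 0.481 CPM, in WT RA. It was too low to be tested, so 34 of the 35 members entered the tests.

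**Figure D1:**
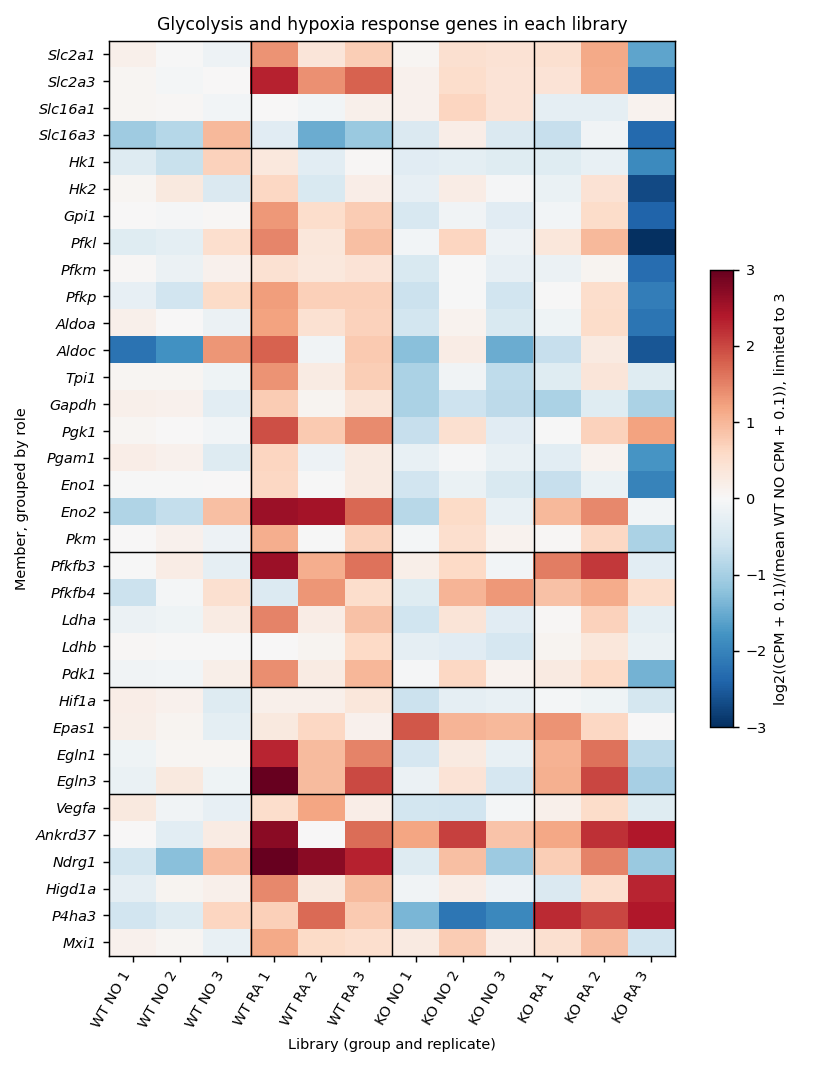
Each row is a member and each column a library; colour is the log2 of the level in CPM (plus 0.1) over the mean of WT NO (plus 0.1), limited to 3, and lines separate groups and roles. The WT RA columns are mostly red, WT RA 1 most strongly, and the KO RA 3 column is blue in most rows but red for Higd1a, Pgk1, Ankrd37 and P4ha3.

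In 3 of the 4 groups 1 library held the highest level for most members. In WT RA, replicate 1 held the highest of the 3 levels for 27 of 34 members and replicate 2 the lowest for 25. In KO NO, replicate 2 was highest for 28, and in KO RA replicate 2 for 27 and replicate 3 lowest for 28. In WT NO no such order was seen, with replicates 1, 2 and 3 highest for 13, 4 and 17 members. Over all 16502 genes tested, WT RA 1, KO NO 2 and KO RA 2 were highest in 31.9%, 34.2% and 30.7% of genes, and KO RA 3 was lowest in 50.8%. The summed level of the members was 14693, 14631 and 12559 CPM in WT NO and 28807, 15784 and 21205 in WT RA. It was 9546, 13686 and 10637 in KO NO and 10760, 16294 and 7898 in KO RA. All 3 WT RA sums lay above all 3 WT NO sums, while the KO RA sums spanned those of KO NO. Most of each sum came from the 15 glycolytic enzymes, which summed to 10834.5 to 13359.9 CPM in WT NO and 13913.2 to 24977.4 in WT RA. The sum therefore says little of the other members.

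The first comparison asks how these genes stood in wildtype cells after RA induction. In 33 of the 34 members the fitted level was higher in WT RA than WT NO, with a median log2 difference of 0.86 against -0.01 over all genes tested. With all 12 libraries and edgeR, 0 passed an adjusted p of 0.05, where 0.321% of all genes were called higher and 0.0848% lower. An unadjusted p under 0.05 was reached by 13 members, all higher. The shares of all genes given are for adjusted p. Counts by unadjusted p, here and below, have no such share beside them, so nothing is read from them. DESeq2 on the same libraries called 7 higher and 0 lower (3.1% and 2.5% of all genes), and limma-voom, which weights libraries by quality, 19 and 0 (10.8% of all genes each way). KO RA replicate 3 is in neither group but enters the shared estimate of spread. Without it, edgeR called 11 members higher and 0 lower, where 5.65% of all genes were called higher and 5.13% lower, and DESeq2 19 and 0 (8.82% and 8.28%). An edgeR fit of only these 6 libraries called 6 and 0 (2.15% and 1.56%), namely Slc2a3, Pgk1, Pfkfb3, Egln1, Egln3 and Ndrg1. The others of the 11 did not pass in it: Slc2a1 (adjusted p = 0.0837), Gpi1 (0.0558), Eno2 (0.0540), Pdk1 (0.0898) and Mxi1. Slc2a3, Pgk1, Eno2, Pfkfb3, Egln1, Egln3 and Ndrg1 were called by DESeq2 and limma-voom alike. In 17 members all 3 WT RA libraries lay above all 3 WT NO libraries and in 0 below, against 15.1% and 14% of all genes. Where a pair of edgeR adjusted p-values is given next, the first is for 11 libraries and the second for 12. A single value or difference is for 11 libraries, and none of these single values passed with 12 either.

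Both glucose transporters rose in the fit of 11. Slc2a3 (chr6:122704768-122778599, GRCm39, minus strand), the high-affinity carrier typical of neurons, stood at 160, 148 and 156 CPM in WT NO and at 762, 399 and 532 in WT RA. The groups were far apart, with the lowest WT RA library above every WT NO library (log2 difference 1.87 ± 0.24, adjusted p = 0.00281 and 0.228). Slc2a1, the widespread basal carrier, was at 112, 101 and 90.8 CPM in WT NO and at 259, 131 and 168 in WT RA. Its groups were also separate, though WT RA 2 lay close to WT NO (0.88 ± 0.25, adjusted p = 0.0470 and 0.543). Of the lactate carriers, Slc16a1 was at 49.4 ± 2.71 and 50.5 ± 3.88 CPM. Slc16a3, the lactate exporter, was the only member with a lower fitted level (-0.90 ± 0.52, adjusted p = 0.3005), and it rested on WT NO 3, at 296 CPM beside 72.2 and 83.7. Without that library the difference was 0.05.

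Of the 15 enzymes all had a higher fitted level in WT RA, and 3 rose in the fit of 11: Pgk1, Gpi1 and Eno2. Pgk1 (chrX:105230706-105247305, plus strand), which makes the first ATP of the pathway, was at 647, 625 and 591 CPM in WT NO and 2354, 1066 and 1666 in WT RA. No library of one group reached the other (1.45 ± 0.34, adjusted p = 0.0234 and 0.178). Gpi1, the isomerase that makes fructose phosphate, was at 460, 449 and 470 CPM against 1129, 660 and 782, again without overlap (0.90 ± 0.21, adjusted p = 0.0252 and 0.557). Eno2, the enolase that neurons make, was far lower in level, at 2.29, 2.59 and 8.12 CPM against 26.0, 24.8 and 14.5. WT NO 3 was the highest untreated library and WT RA 3 the lowest treated one (2.32 ± 0.51, adjusted p = 0.0199 and 0.122). Tpi1, Aldoa, Pfkm and Pfkp did not overlap either but did not pass in either fit, with log2 differences of 0.86, 0.83, 0.40 and 0.92. Libraries overlapped for Pfkl (0.98 ± 0.34, adjusted p = 0.0938), Aldoc (1.00 ± 0.93, adjusted p = 0.537) and Pkm (0.66 ± 0.27, adjusted p = 0.141). Gapdh (0.45 ± 0.21), Eno1 (0.32 ± 0.18), Pgam1 (0.30 ± 0.21), Hk2 (0.19 ± 0.28) and Hk1 (0.03 ± 0.31) had differences of 0.45 or less, also with overlapping libraries.

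Among the regulators, 2 of 5 rose. Pfkfb3, which makes the fructose bisphosphate that switches on phosphofructokinase, was at 5.95, 6.99 and 4.94 CPM in WT NO and 36.0, 12.9 and 18.6 in WT RA, clearly apart (1.92 ± 0.35, adjusted p = 0.0103 and 0.169). Pdk1, the kinase that keeps pyruvate out of the mitochondrial pyruvate dehydrogenase, was at 37.2, 38.1 and 45.5 CPM against 107, 47.6 and 80.2. WT RA 2 only just cleared WT NO 3 (0.96 ± 0.27, adjusted p = 0.0451 and 0.412). Ldha, which makes lactate, overlapped between groups (632, 648 and 845 CPM against 1985, 820 and 1311). Its log2 difference of 0.96 ± 0.34 missed the threshold (adjusted p = 0.0957).

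Both prolyl hydroxylases rose, and the HIF alpha subunits did not pass. Egln1 (chr8:125635308-125676865, minus strand), the main oxygen sensor of HIF, was at 18.3, 20.9 and 21.1 CPM in WT NO and 97.7, 38.7 and 56.4 in WT RA. Every WT RA library exceeded every WT NO library (1.68 ± 0.32, adjusted p = 0.0118 and 0.207). Egln3 (chr12:54225767-54250673, minus strand), its strongly inducible relative, was at 4.65, 6.62 and 4.91 CPM against 43.3, 10.4 and 21.6, with WT RA 1 far above the rest (2.22 ± 0.47, adjusted p = 0.0170 and 0.195). Hif1a was at 66.6 ± 14.0 and 77.7 ± 6.18 CPM (0.23 ± 0.16, adjusted p = 0.401) and Epas1 at 1.08 ± 0.198 and 1.41 ± 0.258 (0.40 ± 0.37, adjusted p = 0.537), and both overlapped.

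Of the 6 hypoxia targets tested, all had higher fitted levels and 2 rose. Ndrg1 (chr15:66801166-66841835, minus strand), a stress-responsive protein of differentiating cells, was at 1.83, 1.07 and 5.22 CPM in WT NO and 25.6, 18.1 and 13.8 in WT RA. That was the largest difference among the members (2.81 ± 0.63, adjusted p = 0.0205 and 0.150). Mxi1, a MAX partner that represses MYC targets, was at 15.3, 14.5 and 11.96 CPM against 30.7, 20.7 and 19.6 without overlap (0.77 ± 0.22, adjusted p = 0.0479 and 0.396). Ankrd37 (1.91 ± 0.60, adjusted p = 0.0684), Higd1a (0.98 ± 0.30, adjusted p = 0.0603), P4ha3 (1.20 ± 0.45, adjusted p = 0.111) and Vegfa (0.70 ± 0.26, adjusted p = 0.108) did not pass.

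Markers of other cells also differed with RA. The 7 neuron markers summed to 78.2 to 110 CPM in WT NO and 140 to 161 in WT RA, the 5 mesenchymal markers to 40.7 to 60.2 and 74.2 to 138, and the 4 markers of cycling cells to 803 to 970 and 672 to 717. In the fit of 11, 2 of 7 neuron markers were called higher and 1 lower, 2 of 5 mesenchymal markers higher, and 1 of 4 cycling markers lower. No neuron, mesenchymal or cycling marker was at the floor in these groups. Their part in the members' differences was not tested, and in bulk samples more cells of a type and more RNA per cell cannot be told apart.

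**Figure D2:**
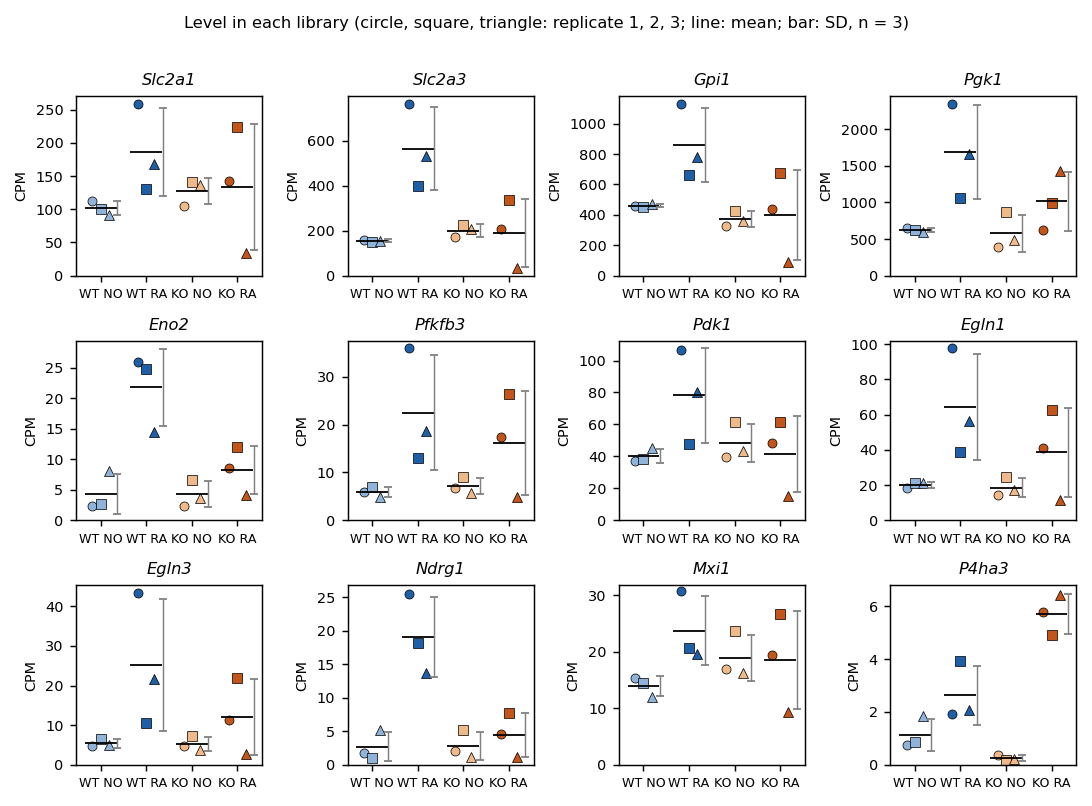
Level in CPM (y axis) in each library of the 4 groups (x axis) for the 11 members called higher in WT RA against WT NO without KO RA replicate 3, and for P4ha3; symbols mark replicates, lines the mean and bars the SD (n = 3). WT RA lies above WT NO in each of these panels, and KO RA 3 (orange triangle) lies below the other KO RA libraries in all panels but those of Pgk1 and P4ha3.

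The same question was asked of the KO. With all 12 libraries, P4ha3 was the 1 member that rose from KO NO to KO RA and 0 fell, where 3.89% of all genes were called higher and 1.59% lower. In that fit the median of all genes lay at 0.11, and that of the 34 members at 0.07. Without KO RA replicate 3, 5 rose (P4ha3, Egln1, Pfkfb3, Ldhb and Egln3) and 1 fell (Slc16a1), where 8.48% and 7.54% of all genes were called, and DESeq2 also called 5 and 1 (10.6% and 10.9%). The median of the members was then 0.45 and that of all genes -0.02, and 30 of 34 fitted levels were higher. With all libraries, DESeq2 called 2 higher (P4ha3 and Ldhb) and 0 lower, where it called 9.94% and 6.01% of all genes, and limma-voom 7 higher and 1 lower, where it called 15.1% and 12.3%. With all libraries, groups did not overlap for 2 members that were higher (P4ha3, Ldhb) and 1 that was lower (Slc16a1), against 13.2% and 17% of all genes. Without the library, they did not overlap for 11 higher and 1 lower, against 27.4% and 28.3%.

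P4ha3 (chr7:99934686-99968907, plus strand) encodes a catalytic subunit of the prolyl hydroxylase that stabilises collagen. It was at 0.381, 0.178 and 0.223 CPM in KO NO, from 5.53 to 12.9 counts a library, and at 5.78, 4.91 and 6.44 in KO RA. Here KO RA 3 was the highest library and the groups were wide apart. The log2 difference was 4.43 ± 0.52 with 12 libraries (adjusted p = 0.00142) and 4.32 ± 0.53 with 11 (adjusted p = 0.000841). Across the alternatives that kept the gene, its adjusted p ran from 1.61e-14 to 0.0231. The 5 mesenchymal markers, which include collagens, summed to 36.6 to 42.9 CPM in KO NO and 142 to 267 in KO RA, and 3 of them were called higher in both fits. Col1a1 was at the floor in KO NO. Their part in the P4ha3 difference was not tested.

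Egln1, Egln3 and Pfkfb3, which also rose in WT, were high in KO RA 1 and 2 and low in KO RA 3. Egln1 was at 14.2, 24.4 and 17.2 CPM in KO NO and 41.3, 62.5 and 11.7 in KO RA (1.47 ± 0.34 without the third library, adjusted p = 0.0167, and 1.06 ± 0.51 with it, adjusted p = 0.218). Pfkfb3 was at 6.77, 9.03 and 5.67 CPM against 17.5, 26.4 and 4.76 (1.61 ± 0.38, adjusted p = 0.0168, and 1.19 ± 0.53, adjusted p = 0.191). Egln3 was at 4.77, 7.17 and 3.80 CPM against 11.4, 21.9 and 2.68 (1.66 ± 0.50, adjusted p = 0.0457, and 1.21 ± 0.65, adjusted p = 0.260). In each of them KO RA 3 lay below all 3 KO NO libraries. Ldhb, the lactate dehydrogenase subunit of oxidative tissue, kept apart in all libraries, at 60.7, 57.9 and 51.3 CPM against 77.3, 91.7 and 63.5 (0.57 ± 0.17, adjusted p = 0.0452, and 0.45 ± 0.22, adjusted p = 0.222). Slc16a1, the lactate and pyruvate carrier of most cells, was at 53.7, 77.0 and 65.2 CPM in KO NO and 41.0, 40.6 and 53.0 in KO RA. Its KO RA 3 level was the highest of its group and still below KO NO 1 (-0.69 ± 0.15, adjusted p = 0.0118, and -0.54 ± 0.20, adjusted p = 0.135).

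The remaining members that rose in WT were not called in KO in either fit. Slc2a3 was at 170, 224 and 206 CPM in KO NO and 206, 335 and 33.4 in KO RA (0.42 ± 0.26 without the third library and -0.07 ± 0.58 with it). Pgk1 went the other way in that library, at 387, 866 and 490 CPM against 619, 1000 and 1432. Its log2 difference was 0.47 ± 0.36 with 11 libraries and 0.81 ± 0.41 with 12 (adjusted p = 0.421 and 0.241). For the other 6 the differences without KO RA 3 were 0.57 ± 0.23 (Gpi1), 0.51 ± 0.27 (Slc2a1), 1.29 ± 0.54 (Eno2), 1.13 ± 0.66 (Ndrg1), 0.27 ± 0.24 (Mxi1) and 0.18 ± 0.29 (Pdk1). With all 12 libraries they were 0.10 (Gpi1), 0.06 (Slc2a1), 0.98 (Eno2), 0.71 (Ndrg1), -0.03 (Mxi1) and -0.21 (Pdk1). That library thus turned the sign for Mxi1 and Pdk1, as it did for Slc2a3.

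**Figure D3:**
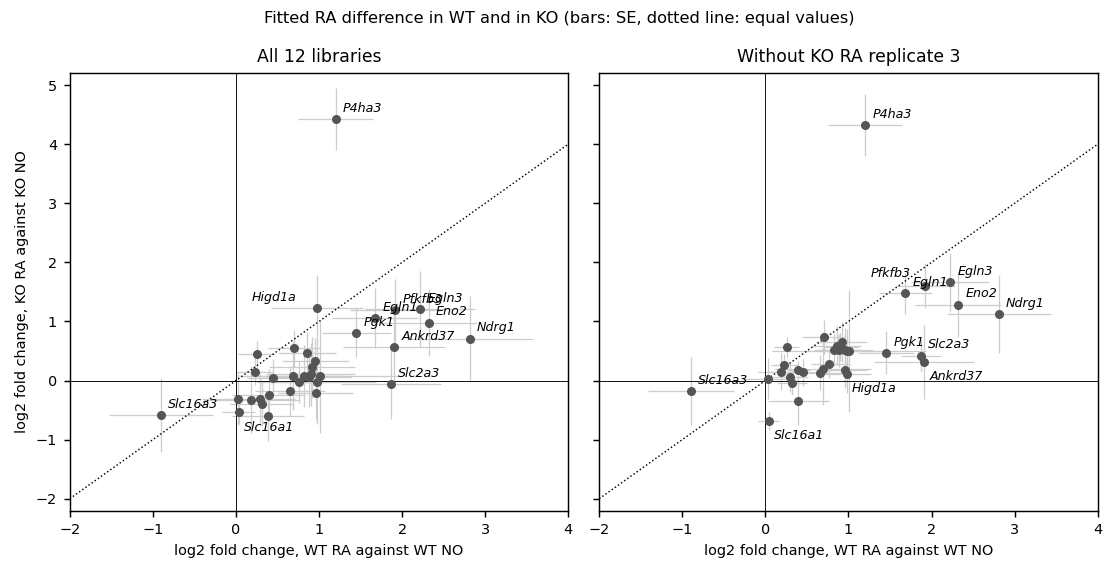
Fitted log2 fold change of each of 34 members, WT RA against WT NO (x axis) and KO RA against KO NO (y axis), with all 12 libraries (left) and without KO RA replicate 3 (right); bars are SE and the dotted line marks equal values. P4ha3 lies far above the line, at 1.20 and 4.43 in the left panel, and most other members lie below it.

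Whether the RA difference itself depended on genotype was tested as an interaction. It was called for 0 members in either fit, where 0% of all genes were called higher and 0% lower with 12 libraries, and 0.802% and 0.537% with 11. An unadjusted p under 0.05 was reached by 1 positive and 1 negative interaction with 12 libraries, and by 1 and 2 with 11. With all libraries DESeq2 called P4ha3 alone (1.3% of all genes positive, 0.576% negative), and limma-voom called P4ha3 as positive and Slc2a3 and Slc16a1 as negative (3.56% and 2.41%). Without KO RA 3 DESeq2 called 1 positive and 2 negative (3.51% and 4.18%). The fitted interaction was negative in 30 of 34 members (median -0.67, all genes 0.12) and in 28 of 34 without KO RA 3 (median -0.36, all genes -0.0041). For P4ha3 it was 3.23 ± 0.66 (adjusted p = 0.189, and 0.0539 with 11 libraries). For Slc2a3 it was -1.93 ± 0.83 (adjusted p = 0.555), and -1.45 ± 0.36 without KO RA 3 (adjusted p = 0.0710). By p in the fit of 12, Ndrg1 (-2.10 ± 1.02, adjusted p = 0.604), Slc16a1 (-0.57 ± 0.28, adjusted p = 0.608), Pdk1 (-1.17 ± 0.63, adjusted p = 0.637) and Eno2 (-1.34 ± 0.79, adjusted p = 0.653) followed. With 11 libraries these were -1.68 ± 0.91 (Ndrg1, adjusted p = 0.349), -0.72 ± 0.20 (Slc16a1, 0.0901), -0.79 ± 0.40 (Pdk1, 0.318) and -1.03 ± 0.75 (Eno2, 0.494). By edgeR, therefore, no member's RA difference was shown to depend on genotype.

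Genotype was compared in untreated cells next. With 12 libraries 0 of 34 members were called in KO NO against WT NO, where 0.788% of genes were called higher and 0.351% lower. An unadjusted p under 0.05 was reached by 4 members, 2 in each direction. DESeq2 called 1 higher (Epas1) and 2 lower (P4ha3 and Gapdh) with all libraries, where it called 3.13% and 3.02% of genes. Limma-voom called 2 higher and 3 lower, where it called 10.9% and 10.8%. With 11 libraries and edgeR, Epas1 rose and P4ha3 and Gapdh fell, where 4.43% and 4.35% of genes were called, and DESeq2 called 2 and 2 (7.32% and 7.63%). Groups did not overlap for 5 of 34 members higher in KO NO (Epas1, Ankrd37, Slc16a1, Mxi1, Slc2a3) and 5 lower (P4ha3, Gapdh, Ldhb, Eno1, Gpi1), against 15.5% and 15.2% of all genes. These counts were close to what the shares of all genes would give, so nothing particular to the members is read from them. Of the 15 enzymes 13 had a lower fitted level in KO NO (median -0.27, all genes -0.02).

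Gapdh (chr6:125135289-125143518, minus strand), at 6180, 6098 and 4491 CPM in WT NO, was at 2902, 3613 and 3241 in KO NO. No KO NO library reached the lowest WT NO library (-0.77 ± 0.21, adjusted p = 0.0486, and 0.336 with 12 libraries). P4ha3 was at 0.740, 0.850 and 1.83 CPM in WT NO, above every KO NO library (-2.11 ± 0.49, adjusted p = 0.0253 and 0.0709). Epas1, the HIF alpha subunit known from endothelium, was at 1.23, 1.15 and 0.855 CPM in WT NO and 4.22, 2.28 and 2.21 in KO NO. KO NO 1 was the highest and no library overlapped (1.44 ± 0.37, adjusted p = 0.0373 and 0.170). The 4 endothelial markers summed to 0.563 to 2.81 CPM in WT NO and 1.07 to 2.01 in KO NO, with Cdh5 at the floor in both. Single markers in that sum went opposite ways and did not pass by edgeR. Pecam1 was higher without overlap (1.80 ± 0.67, adjusted p = 0.124), and limma-voom with all libraries called it (adjusted p = 0.0245). Kdr was lower with overlap (-2.12 ± 0.90, adjusted p = 0.172), and Tek was at 0.20 ± 0.60. Their part in the Epas1 difference was not tested.

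Ankrd37, a small ankyrin-repeat protein, was at 1.51, 1.18 and 1.77 CPM in WT NO and 3.49, 6.46 and 2.76 in KO NO (1.51 ± 0.60, adjusted p = 0.143). Slc16a1 was at 51.4, 50.5 and 46.3 CPM against 53.7, 77.0 and 65.2 (0.41 ± 0.13, adjusted p = 0.0759), and Ldhb at 74.6, 71.7 and 71.9 against 60.7, 57.9 and 51.3 (-0.35 ± 0.15, adjusted p = 0.185). These 3 were among the members whose groups did not overlap, and they did not pass in either fit. Pfkp, the platelet-type phosphofructokinase, is a chromosome 13 gene, and the 648 genes tested there had a median log2 difference of -0.36 in this comparison, against -0.02 over all genes. Its own was -0.39 ± 0.52, with an adjusted p of 0.894, and the part of the chromosome in it was not tested.

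After RA, 0 members were called in KO RA against WT RA with 12 libraries, where 0.885% of genes were called higher and 0.358% lower. An unadjusted p under 0.05 was reached by 7 members, 6 of them lower. DESeq2 called 0 higher and 2 lower (Gapdh and Eno1) with all libraries, where it called 5.02% and 2.95% of genes. Limma-voom called 1 higher and 5 lower, where it called 9.79% and 8.31%. Without KO RA 3 and by edgeR, Gapdh, Slc2a3 and Eno1 fell and 0 rose, where 4.42% of genes were called higher and 5.44% lower, and DESeq2 called 0 and 6 (6.97% and 9.01%). All 15 enzymes had a lower fitted level in KO RA, with a median of -0.93 with 12 libraries and -0.63 with 11, against 0.09 and 0.01 over all genes. With all libraries, groups did not overlap for 1 member higher in KO RA (P4ha3) and 8 lower, against 9.97% and 10.9% of genes. Without KO RA 3 it was 2 and 10, against 25.7% and 22.2%. This comparison shares its WT RA and KO RA libraries with the ones above, so its values are not independent of theirs.

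Gapdh was at 9548, 5920 and 7331 CPM in WT RA and 2893, 4311 and 2899 in KO RA. The highest KO RA library was below the lowest WT RA library, and here KO RA 3 lay beside KO RA 1 (-1.08 ± 0.24, adjusted p = 0.0222, and -1.17 ± 0.32, adjusted p = 0.103, with 12). Slc2a3, at 762, 399 and 532 CPM in WT RA, was at 206, 335 and 33.4 in KO RA, all lower (-1.07 ± 0.27, adjusted p = 0.0340, and -1.56 ± 0.60, adjusted p = 0.223). Eno1 (chr4:150321073-150337027, plus strand), the enolase of most cells, was at 1130, 725 and 880 CPM against 456, 637 and 184 (-0.74 ± 0.21, adjusted p = 0.0453, and -1.10 ± 0.39, adjusted p = 0.196). Its groups did not overlap either. Eno1 has a near-identical copy, Eno1b, with counts of up to 21.8% of its own, so reads may have been split between them.

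The next smallest p-values belonged to Ndrg1, Tpi1 and P4ha3, which did not pass. Ndrg1 was at 25.6, 18.1 and 13.8 CPM in WT RA and 4.60, 7.77 and 1.19 in KO RA (-1.63 ± 0.69 without KO RA 3, adjusted p = 0.161). Tpi1, which interconverts the triose phosphates, was at 1196, 558 and 777 CPM against 363, 600 and 362, with overlap (-0.81 ± 0.34, adjusted p = 0.157). P4ha3 was at 1.92, 3.93 and 2.05 CPM against 5.78, 4.91 and 6.44, and here KO RA was the higher group without overlap (1.01 ± 0.48, adjusted p = 0.205). Egln1, Egln3 and Pfkfb3 overlapped between KO RA and WT RA and had differences of -0.31, -0.59 and -0.04 without KO RA 3 and of -0.74, -1.05 and -0.46 with it.

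Cell-state markers differed in the genotype comparisons too. Of the 5 neural progenitor markers, Pax6 was called lower in KO NO than WT NO (-2.50 ± 0.45, adjusted p = 0.0264 with 12 libraries) and in KO RA than WT RA (-2.21 ± 0.44, adjusted p = 0.0396). Without KO RA 3, Cdh2 was also called lower in KO NO (-0.66 ± 0.14, adjusted p = 0.0188), while Cdh2 (0.73 ± 0.15, adjusted p = 0.0169) and Nes (0.65 ± 0.17, adjusted p = 0.0380) were called higher in KO RA. The 4 pluripotent markers summed to 2184 to 2867 CPM in WT RA and 1062 to 1242 in KO RA, with Zfp42 at the floor in both. Single markers in that sum went opposite ways. The fitted level of Pou5f1 was lower in KO RA in both fits and that of Dppa5a higher. Nanog was higher with 12 libraries and lower with 11. The neuron markers summed to 140 to 161 CPM in WT RA and 145 to 205 in KO RA, with overlap. The mesenchymal markers summed to 74.2 to 138 CPM in WT RA and 142 to 267 in KO RA. The cycling markers summed to 672 to 717 CPM in WT RA and to 475, 496 and 1179 in KO RA. In the fit of 11, 1 of 3 tested pluripotent markers and 2 of 4 cycling markers were called lower in KO RA, and 1 of 5 mesenchymal markers higher. Their part in the members' differences was not tested.

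Ratios of related genes within a library do not depend on how libraries are scaled. For 5 pairs the RA and the genotype effect on the log2 ratio were tested by exact two-sided permutation of labels within strata (400 arrangements, smallest possible p 0.005), adjusted over the 10 tests. Eno2 made up 0.315, 0.352 and 1.08% of Eno2 plus Eno1 in WT NO and 2.24, 3.31 and 1.62% in WT RA. In KO NO it was 0.480, 1.01 and 0.687% and in KO RA 1.86, 1.85 and 2.14%. All 6 RA libraries lay above all 6 untreated libraries, KO RA 3 included. The RA effect was 1.87 on the log2 scale, with an exact p of 0.005, the smallest that the permutations can give, and an adjusted p of 0.05, which is not under the threshold and is the lowest a single ratio could reach.

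Slc2a3 made up 60.5 ± 2.35% of Slc2a3 plus Slc2a1 in WT NO (SD, n = 3) and 75.3 ± 0.702% in WT RA. In KO NO it was 61.1 ± 0.909%, and in KO RA 59.1, 59.96 and 49.6%. All WT RA libraries were above the other 9. Averaged over genotypes the RA effect was 0.35 (exact p = 0.13, adjusted 0.433), and averaged over RA the genotype effect was -0.61 (exact p = 0.065, adjusted 0.325). The other 3 pairs (Ldhb to Ldha, Hk2 to Hk1, Aldoc to Aldoa) had adjusted exact p-values of 0.860 or more for both effects. Hk2 stayed the larger part of its pair in every library, at 55.6 to 84.2%, and Ldhb the smaller, at 3.54 to 11.5%.

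**Figure D4:**
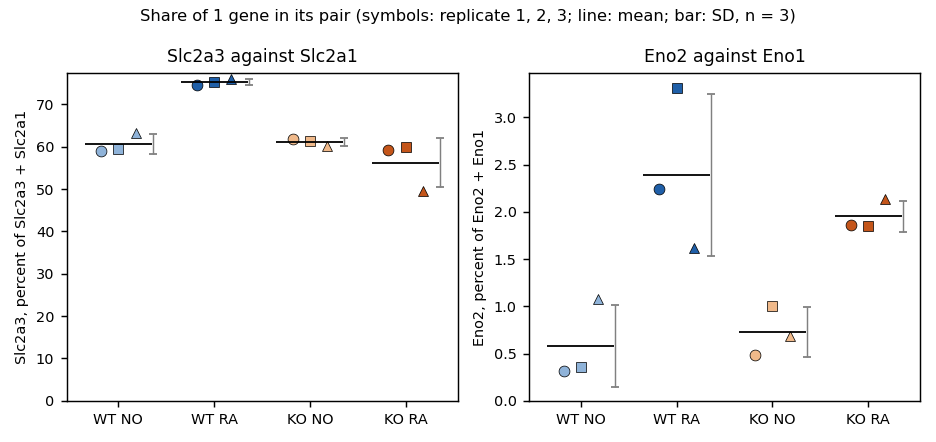
Share (percent, y axis) of Slc2a3 in Slc2a3 plus Slc2a1 (left) and of Eno2 in Eno2 plus Eno1 (right) in each library of the 4 groups; symbols mark replicates, lines the mean and bars the SD (n = 3). Slc2a3 has its highest shares in WT RA, at 75.3% on average, and Eno2 is higher in both RA groups than in both untreated groups.

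KO RA replicate 3 was set against the mean of KO RA 1 and 2 for each member. Its level was lower in 29 of 34 members, with a median log2 difference of -1.55, against -0.26 over all genes. Pfkl, Slc2a3 and Hk2 were lowest, and Higd1a, Pgk1, Ankrd37, P4ha3 and Slc16a1 were the 5 that were higher. Higd1a, a small protein of the inner mitochondrial membrane, was at 30.9, 59.9 and 204 CPM in the 3 libraries. The difference went with the length of the canonical transcript, with a Spearman correlation of -0.36 across the 34 members and -0.41 across 16444 genes. These correlations are across genes of 1 library, which share its preparation, and are a description only. The 8 members with transcripts up to 2000 bases had a median of -0.41 and the 26 longer ones -1.90.

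**Figure D5:**
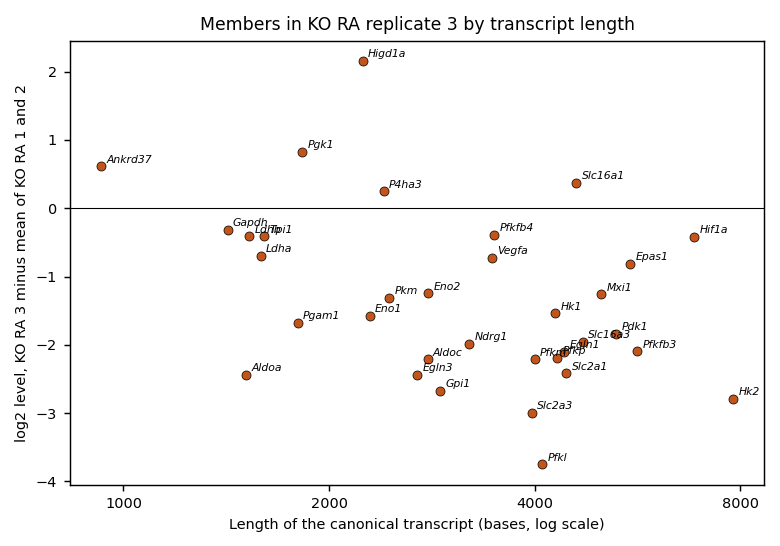
Each point is a member, with the length of its canonical transcript in bases (x axis, log scale) and the log2 level in KO RA 3 minus the mean of KO RA 1 and 2 (y axis). Most points lie below 0, with a median of -1.55, and Higd1a and Pgk1 stand highest.

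Genes of neighbouring pathways that are no members were counted in the same fits. In WT RA against WT NO, the shares of all genes called higher and lower were 0.321% and 0.0848% by edgeR, 3.1% and 2.5% by DESeq2, 10.8% each by limma-voom, and 5.65% and 5.13% by edgeR without KO RA 3. In KO RA against KO NO they were 3.89% and 1.59%, 9.94% and 6.01%, 15.1% and 12.3%, and 8.48% and 7.54%. Nothing particular to a list is read from its count. Of 30 other HIF-inducible genes, 14 rose and 0 fell in WT RA against WT NO without KO RA 3, and 0 passed by edgeR with all libraries, where an unadjusted p under 0.05 was reached by 17 higher and 2 lower. With all libraries DESeq2 called 9 higher and 1 lower, and limma-voom 20 and 0. Their median was 1.06. Examples were Bnip3, a mitophagy receptor, at 84.1 ± 22.3 and 436 ± 223 CPM (2.38 ± 0.46, adjusted p = 0.0134), and Bhlhe40, a circadian repressor, at 3.08 ± 0.530 and 17.5 ± 3.83 CPM (2.51 ± 0.28, adjusted p = 0.00136). In KO, 2 of the 30 rose with all libraries, and both modify collagen: Plod2 (2.46 ± 0.43, adjusted p = 0.0102), a lysyl hydroxylase, and Loxl2 (2.23 ± 0.45, adjusted p = 0.0192), a lysyl oxidase. Without KO RA 3, 7 rose and 0 fell.

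The pentose phosphate pathway branches from glycolysis at glucose phosphate. In KO, 2 of its 7 genes fell with all libraries and 0 rose. Taldo1, its transaldolase, was at 79.0, 69.5 and 61.4 CPM in KO NO and 40.8, 39.2 and 35.2 in KO RA (-0.87 ± 0.19, adjusted p = 0.0229). G6pdx, its first enzyme, was at 49.4, 44.8 and 45.3 CPM against 23.4, 25.5 and 12.2 (-1.19 ± 0.26, adjusted p = 0.0257). Both pairs of groups were separate. In WT, 0 of 7 were called by edgeR or DESeq2 with all libraries, with 1 lower at an unadjusted p under 0.05, and limma-voom called 1 higher and 3 lower. In the fit of 11, 1 fell (G6pdx, -0.51 ± 0.13, adjusted p = 0.0284) and 1 rose (Pgls, 0.44, adjusted p = 0.0356). Of 11 tested genes for pyruvate entry into mitochondria, edgeR called 0 with all libraries in either RA comparison, with 3 at an unadjusted p under 0.05 in WT and 4 in KO. DESeq2 called 0 of them in WT and 1 in KO, and limma-voom 2 and 4. Of 10 other HIF pathway components edgeR also called 0, with 2 at an unadjusted p under 0.05 in each genotype, DESeq2 0 in WT and 1 in KO, and limma-voom 3 in each. Eno3, the muscle enolase, was the 1 of 10 other glycolytic isoenzymes called in KO RA against KO NO (2.02 ± 0.32, adjusted p = 0.00671), and Mxd4 the 1 of 11 MAX partners (1.17 ± 0.28, adjusted p = 0.0360).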

How the data were processed

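Bulk mRNA-Seq of 12 libraries was made by the authors with the nf-core RNA-Seq pipeline (STAR, Salmon, GRCm39), and the deposited values are estimated counts that were derived from TPM and brought to library size, so they do not grow with transcript length. Among the 3851 genes above 0 in 1 library, value and exonic length had a Spearman correlation of -0.685. The submitters' processing notes name DESeq2 for their own comparisons, which were not used here. Every column was mapped to a sample by its title.

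The estimated counts were rounded and fitted with edgeR 4.0.16 (TMM, filterByExpr, robust quasi-likelihood, 4 group coefficients, R 4.3.3), with Benjamini-Hochberg adjustment over the 16502 genes tested (17327 without KO RA replicate 3) and calls at 0.05. DESeq2 1.42.0, limma-voom 3.58.1 with quality weights, DESeq2 size factors, other filters, only the groups compared, a replicate block and each library left out were alternatives. DESeq2 without KO RA replicate 3, the groups without that library and the interaction of the ratios were added after the data were seen. Ratios used log2 of counts plus 1 and exact permutation (Python 3.11.15, NumPy 2.4.6). Spearman correlations used SciPy 1.17.1. Scripts were tested on simulated data. Positions are from the GRCm39 annotation.

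Members given in full were those called with 12 or 11 libraries, filled up to 6 by unadjusted p, and at most 3 genes of each other list. The members and lists were chosen with earlier results of these data known. Depth was 17370069 to 30738717 counts a library, which sets a floor of 3 counts at 0.0838 to 0.297 CPM, covering counting error only. These are estimated counts scaled from TPM, so 3 of them are not 3 reads. Near-identical copies took up to 21.8% of the counts of Eno1, 2.24% of Pgk1 and 1.84% of Pgam1, so counts of these genes are uncertain.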

Additional observations from a re-analysis of the deposited data

Results flagged for a closer look

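The log2 ratio of Slc2a3 to Slc2a1 was flagged because its RA libraries lay above the untreated ones in WT and below them in KO. It was 0.99 higher in WT RA than WT NO, with all 3 WT RA libraries above all 3 WT NO libraries. From KO NO to KO RA the difference was -0.29, with all 3 KO RA libraries below all 3 KO NO libraries, and -0.09 without KO RA replicate 3. The margin in KO was narrow. As a share of the pair, the highest KO RA library was at 59.96% and the lowest KO NO library at 60.09%. The difference between the responses was -1.28. An exact two-sided permutation of genotype labels within treatment (400 arrangements), added after the values were seen, gave p = 0.04 and an adjusted p of 0.2 over the 5 pairs, so it did not pass. Labels permuted in this way assume no genotype effect in either treatment. The p is thus not an exact test of the difference between the responses alone.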

How the results depend on the processing

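Numbers of called members depended on KO RA replicate 3 and on the tool. With each library left out in turn, edgeR called 0 to 3 members in KO NO against WT NO, 0 to 3 in KO RA against WT RA, 0 to 11 in WT RA against WT NO, 1 to 6 in KO RA against KO NO and 0 to 0 for the interaction, and each highest count came without KO RA replicate 3. In that order, edgeR with all libraries called 0, 0, 0, 1 and 0, DESeq2 3, 2, 7, 2 and 1, limma-voom 5, 6, 19, 8 and 3, and DESeq2 without KO RA replicate 3 4, 6, 19, 6 and 3. A fit of only the groups compared called 6 in WT RA against WT NO. A minimum of 10 counts in every library removed P4ha3 and left 0 in KO RA against KO NO. For edgeR and DESeq2 with and without KO RA replicate 3, and for limma-voom, the shares of all genes called are given with each comparison above. For only the groups compared, the shares are given with WT RA against WT NO. No shares are given for the other fits, so nothing is read from their counts. DESeq2 size factors and a looser filter gave the edgeR counts. Of the recomputed log2 differences of members given in full, 594 kept their side of the threshold, 96 gained a call and 0 changed sign. Among members outside that set, leaving out a library changed some signs, for example that of Slc16a3 in WT RA against WT NO (-0.90, and 0.05 without WT NO replicate 3) and that of Slc2a3 in KO RA against KO NO (-0.07, and 0.42 without KO RA replicate 3), where Mxi1 and Pdk1 changed sign likewise.

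The genotype effects on log2 ratios that were near 0 changed sign. Aldoc to Aldoa was -0.03, and 0.0348 with 10 counts added in place of 1. With each library left out, it ran from -0.40 to 0.57, Hk2 to Hk1 (0.06) from -0.25 to 0.27, Eno2 to Eno1 (0.13) from -0.0325 to 0.41 and Ldhb to Ldha (0.19) from -0.0201 to 0.33. The RA effect on Hk2 to Hk1 (-0.15) ran from -0.45 to 0.0692. None of these had passed its test.

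Libraries of the same replicate number did not deviate together, with correlations of same-numbered deviations from -0.238 to 0.0957, and 0 of 18 pairs over 0.1. Whether the same number stands for the same passage in different groups is not stated, so shared passages cannot be checked this way. With the replicate block, the counts of called members were 0, 0, 0, 1 and 0, as without it. The depth of KO RA replicate 3 after scaling sets its floor of 3 estimated counts at 0.297 CPM, so levels near that value are uncertain there. Since these counts were scaled from TPM, the floor stands for different numbers of reads in short and long transcripts. P4ha3 lay above it in that library.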
